A study of Mus musculus with 6 samples.

Results

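The miR-17-92 and miR-106b-25 clusters were followed here through 9 microRNAs (miRNAs), chosen by name as the main arms of their hairpins: mmu-miR-17, mmu-miR-18a, mmu-miR-19a, mmu-miR-20a, mmu-miR-19b and mmu-miR-92a from the first cluster, and mmu-miR-106b, mmu-miR-93 and mmu-miR-25 from the second, written below without the species prefix. They are 9 of the 1078 mouse miRNA reporters on each array. RNA came from cultured vascular smooth muscle cells, the cells that contract the arterial wall, taken from the abdominal aorta of C57BL/6 mice of 8 weeks and passaged several times. Of the 6 cultures, 3 were treated with TNF-α, an inflammatory cytokine, and 3 were untreated controls; no group carried a genetic change. The sources used here do not give the dose and duration of TNF-α, the number of mice behind the cultures, or whether cells were pooled.

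A miRNA lowers the output of mRNAs that pair with its seed, bases 2 to 8 from its 5′ end, so miRNAs with the same seed share many targets. The miR-17-92 transcript is activated by MYC and E2F factors, its products favour cell cycle progression and survival, and the pro-apoptotic BIM is a well-studied target. The miR-106b-25 cluster is a paralogue that is co-transcribed with its host gene Mcm7, which encodes a DNA replication helicase subunit. In vascular smooth muscle, proliferation and the switch away from the contractile state accompany inflammation, which makes the 2 clusters of interest in cells exposed to TNF-α.

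The mature sequences below, from RefSeq on build GRCm38.p6, show which members share a seed and how closely the reporters' targets resemble each other; capitals mark the seed.
miR-17: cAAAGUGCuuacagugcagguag
miR-20a: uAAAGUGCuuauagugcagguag
miR-106b: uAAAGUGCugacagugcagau
miR-93: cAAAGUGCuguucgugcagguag
miR-18a: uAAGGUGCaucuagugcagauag
miR-19a: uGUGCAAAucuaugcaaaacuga
miR-19b: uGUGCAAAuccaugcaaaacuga
miR-92a: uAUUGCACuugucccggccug
miR-25: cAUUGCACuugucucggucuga

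The 9 members fall into 4 seed families. The miR-17 seed has 4 members and is found in both clusters, as is the miR-92 seed with miR-92a and miR-25. The miR-18 seed (miR-18a) and the miR-19 seed (miR-19a and miR-19b) occur only in miR-17-92 among the 9. Counting positions from 1 at the 5′ end, miR-17 and miR-20a differ by C1U and C12U, and miR-19a and miR-19b by U11C alone. Over the first 21 bases, miR-92a and miR-25 differ by U1C, C14U and C18U, and miR-17 and miR-106b by C1U, U10G and G20A. Whether a reporter also captured such near relatives is not known from the files, so values of same-seed members may share signal.

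The 6 hairpins of miR-17-92 lie within 836 bases on the plus strand of chromosome 14 (chr14:115043671-115044506). In the RefSeq table used here only the miR-92a hairpin lies wholly inside the annotated host transcript Mir17hg (chr14:115044390-115046728). The 3 hairpins of miR-106b-25 lie within 498 bases on the minus strand of chromosome 5 (chr5:138165321-138165818), inside Mcm7 (chr5:138164583-138172111). Mature miR-19b and miR-92a are also encoded by a second hairpin each in the paralogous miR-106a-363 cluster on the X chromosome (chrX:52741693-52742567), so their reporters cannot tell these loci apart.

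Each array gave 1 median scanner density per reporter, a fluorescence intensity from which background had not been subtracted. The background peak, the commonest density on an array, was 80.9 to 89.6 on the TNF-α arrays and 66.3 to 75.6 on the control arrays. A background limit, the peak plus 3 SD of the values below it, came to 115 to 127.9 on TNF-α arrays and 89.3 to 101 on control arrays. Dim reporters therefore read higher on TNF-α arrays before correction, and whether this offset came from the arrays or from the treatment cannot be told apart. Of the 4 smooth muscle markers, miR-143 and miR-145 were bright, at 3362 ± 197 and 6173 ± 646 with TNF-α, against 3577 ± 336 and 5151 ± 620.1 in controls (SD, n = 3 each), and neither passed the test described below. miR-143* was too dim to be tested, and miR-145*, above the limit on 1 of the 6 arrays, passed as lower (-0.51, adjusted p = 0.00496 in limma). Of the 4 striated muscle markers, miR-206 was above the limit on all 6 arrays, at 189 ± 17.7 with TNF-α and 257 ± 19.9 in controls, and passed as lower (-0.49, adjusted p = 0.00339 in limma); the other 3 were not clear of background. Of the 5 blood cell markers 0 were clear of background, that is above the limit on at least 3 arrays, and their summed density was 384 to 445 with TNF-α and 361 to 391.5 in controls. Of the 2 endothelial markers, miR-126-3p was above the limit on all arrays, at 134 ± 15.2 with TNF-α and 137 ± 19.3 in controls. The other, miR-126-5p, was below the limit on every array and too dim to be tested. The liver marker miR-122 was below the limit on every array, yet passed as lower (-0.26, adjusted p = 0.0225 in limma). The neuronal miR-124 and miR-9 were also below the limit on every array. Of these, miR-124 did not pass and miR-9 was too dim to be tested. The part of these markers in the results below was not tested. In such bulk samples, fewer cells that contain a miRNA and less of it per cell cannot be told apart.

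With TNF-α, miR-25 rose after quantile normalization, but did not pass the test without normalization, with median scaling or in the authors' processed table. Its cluster neighbours miR-93 and miR-106b had positive changes that did not pass the test. The 6 miR-17-92 members all had negative values after quantile normalization, although miR-17, miR-18a and miR-19a turned positive when the arrays were not normalized; 4 were tested and did not pass, 2 were too dim to be tested, and miR-92a had the most negative value. Changes are on a log2 scale, after background correction, addition of 50 and quantile normalization, which understates the change of dim reporters. A reporter was tested if its corrected density reached 32 on at least 3 arrays, and called at an adjusted p under 0.05 in limma, a linear model fitted across all reporters. Of the 9 members, 7 were tested, and 1 of these was called, against 22.7% of the 642 tested reporters in either direction (12.9% higher and 9.81% lower). The split between directions depended on the scaling: 83 reporters were called higher and 63 lower here, against 163 and 41 without normalization, 126 and 60 with median scaling, and 39 and 81 in the authors' processed table. At an unadjusted p under 0.05 there were 3 members, miR-25, miR-93 and miR-92a, beside 35.5% of all tested reporters. The median change of the 7 tested members was -0.02, beside 0.01 over all tested reporters. The count and the median of the members thus lay near those of the array as a whole.

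**Figure D1:**
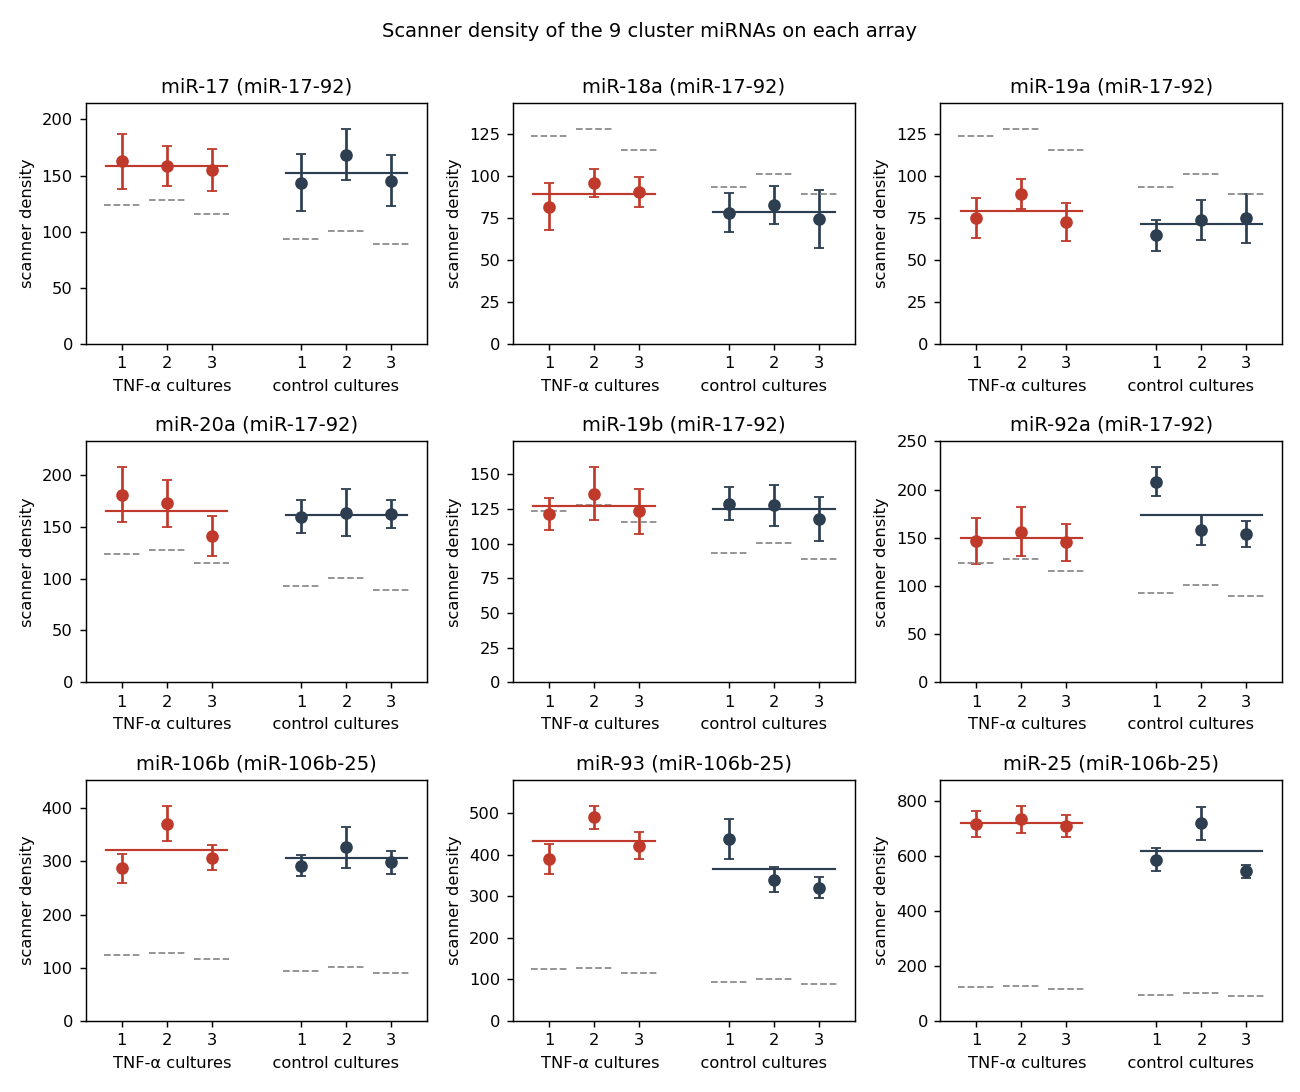
Scanner density (vertical axes, linear, starting at 0) of each member on the 3 TNF-α arrays (red, left) and the 3 control arrays (dark, right); points are median densities, error bars the standard deviation given for the reporter on that array, solid lines group means, and dashed lines each array's background limit. miR-25, miR-93 and miR-106b stand well above the limit on all arrays, whereas miR-18a and miR-19a lie below it on all arrays.

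Within miR-106b-25, miR-25, which has the miR-92 seed printed above, was the called member. Its density was 716, 735 and 712 on the TNF-α arrays, against 588, 719.7 and 544 on the control arrays. The TNF-α values were tight and the control values scattered, so the groups overlapped on this raw scale through control replicate 2. On the normalized log2 scale the values were 9.54, 9.62 and 9.68 with TNF-α, against 9.13, 9.33 and 9.22 in controls, and the groups no longer overlapped. The change was 0.39 ± 0.08 (SE, n = 3 per group; 95% interval 0.21 to 0.57), or 1.31-fold, with an adjusted p of 0.0115 in limma. Leaving out any 1 array gave 0.32 to 0.44 with adjusted p of 0.0179 to 0.0454, so the call rested on no single culture. It did rest on the scaling of the arrays. With cyclic loess the change was 0.37 (adjusted p = 0.0191 in limma) and the call held. Without normalization it was 0.23 (adjusted p = 0.130), where the median of all tested reporters was 0.14 and that of the 293 reporters clear of background was -0.0094. With median scaling it was 0.17 (adjusted p = 0.195), where these medians were 0.087 and -0.064. In the authors' processed table the change was 0.25 (adjusted p = 0.0597), where they were -0.12 and -0.13.

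miR-93, which shares the miR-17 seed and lies between the other two hairpins of the cluster, had a change as large as that of miR-25 with a wider error. Its density was 389.6, 491 and 423 with TNF-α, against 438, 339.9 and 321 in controls. Control replicate 1 lay inside the TNF-α range, and the other control cultures lay below it. The change was 0.39 ± 0.12 (95% interval 0.10 to 0.67, adjusted p = 0.0567 in limma), which missed the threshold. It was called in 5 of 19 alternative settings: with a trended robust variance (adjusted p = 0.0280), with a filter on all 6 arrays (0.0467), with a filter at the background limit (0.0466), without TNF-α replicate 1 (change 0.48, 0.0452) and without control replicate 1 (change 0.50, 0.0432). In these settings 14.5%, 14.7%, 17.7%, 8.20% and 8.47% of all tested reporters were called higher. It was not called without normalization (change 0.24, adjusted p = 0.165 in limma), with median scaling (0.19, 0.260) or with cyclic loess (0.34, 0.0551). Nor was it called in the authors' processed table (0.18, 0.271).

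miR-106b, the first hairpin in the direction of Mcm7 transcription, had densities of 287, 371 and 307 with TNF-α, against 292, 327 and 298 in controls. The groups overlapped, with TNF-α replicate 2 the highest array. The change was 0.12 ± 0.11 (95% interval -0.13 to 0.36, adjusted p = 0.487 in limma). The sign of this value was not stable, since it was -0.03 in the authors' processed table. All 3 reporters of this cluster were therefore bright enough to measure on every array, and their changes ran from 0.12 to 0.39.

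In miR-17-92, miR-92a had the most negative change among the members. Its density was 147, 156 and 145 with TNF-α, against 208, 158 and 154 in controls. Control replicate 1 was far above the rest, and TNF-α replicate 2 overlapped the other controls on the raw scale. On the normalized log2 scale the groups did not overlap, with 7.05, 7.19 and 7.22 with TNF-α, against 7.70, 7.25 and 7.39 in controls. The change was -0.29 ± 0.12 (95% interval -0.56 to -0.03, adjusted p = 0.106 in limma) and did not pass. Without control replicate 1 it was -0.17. In the authors' processed table the values were 63.3, 69.0 and 74.1 with TNF-α, against 134, 89.0 and 104 in controls, and there miR-92a passed as lower (-0.47, adjusted p = 0.00978), in a table where 28.4% of tested reporters were called lower. Nonoverlap on the normalized scale held for 2 of the 7 tested members, miR-25 as higher and miR-92a as lower, beside 40.0% of all tested reporters (20.4% higher and 19.6% lower).

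miR-17 and miR-20a, which carry the same seed as miR-106b and miR-93, differed little between the groups. miR-17 had densities of 163, 158 and 155 with TNF-α, against 144, 169 and 146 in controls. miR-20a had 181, 172 and 142 with TNF-α, against 159.5, 164 and 162 in controls. For both the TNF-α and control arrays overlapped, and miR-20a was lowest on TNF-α replicate 3. Their changes were -0.02 ± 0.08 (95% interval -0.21 to 0.17, adjusted p = 0.876 in limma) and -0.05 ± 0.08 (-0.23 to 0.13, adjusted p = 0.671). The intervals bound a change of either miRNA on this compressed scale, without showing that there was none. The sign of miR-17 turned without normalization (0.03) and when single arrays were left out.

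The miR-19 pair, which has a seed of its own, differs by 1 base. miR-19b had densities of 121, 136 and 123 with TNF-α, against 129, 127.6 and 118 in controls, which overlapped. It exceeded the background limit on 2 of 3 TNF-α arrays and on 3 of 3 control arrays, with a change of -0.09 ± 0.08 (95% interval -0.28 to 0.09, adjusted p = 0.445 in limma). miR-19a had densities of 74.9, 89.0 and 72.3 with TNF-α, against 64.4, 73.6 and 74.7 in controls, below the limit on every array. miR-18a was likewise below the limit, with 81.5, 95.7 and 90.3 with TNF-α, against 77.9, 82.5 and 74.0 in controls. The higher readings of these dim reporters on TNF-α arrays went with the higher background there, and neither was tested or has a fold. In genome order along chromosome 14, the normalized changes were -0.02 for miR-17, -0.05 for miR-18a, -0.09 for miR-19a, -0.05 for miR-20a, -0.09 for miR-19b and -0.29 for miR-92a. Those of miR-18a and miR-19a come from readings below the limit and show no trend along the cluster. They were 0.14 and 0.10 without normalization, and 0.089 and 0.051 with median scaling.

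**Figure D2:**
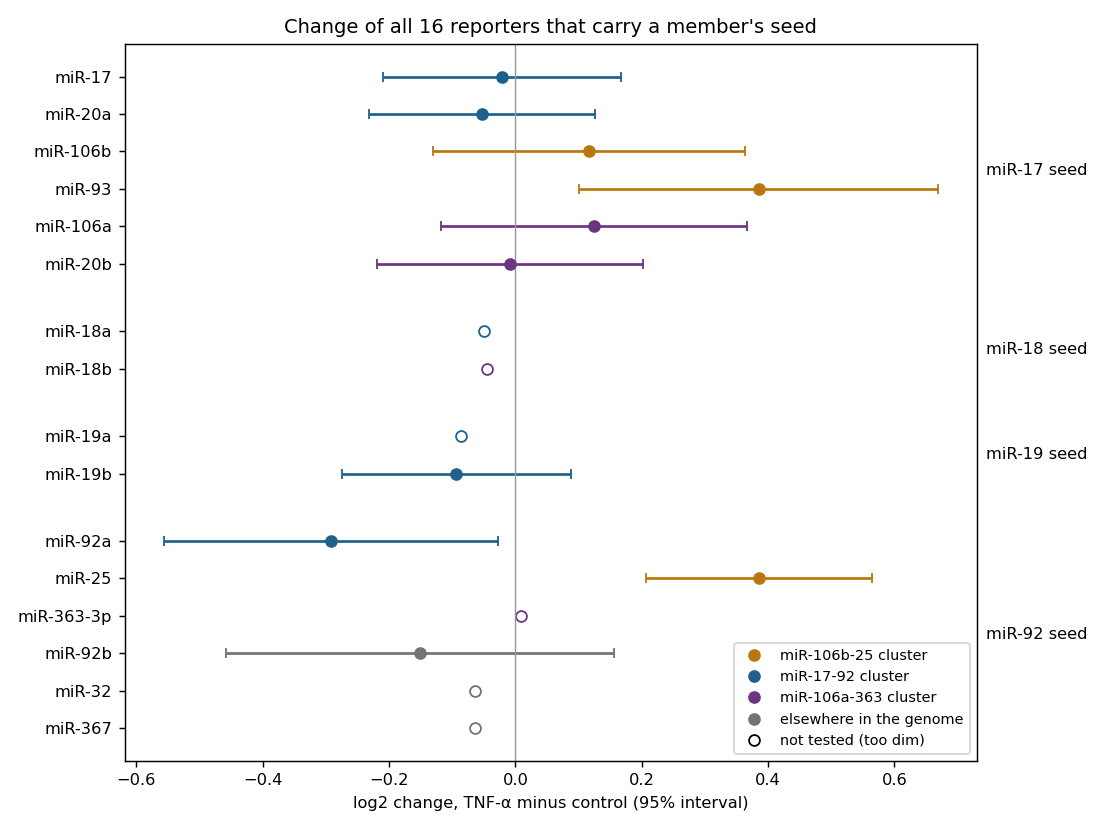
Log2 change, TNF-α minus control, of all 16 reporters with a member's seed (horizontal axis), grouped by seed and coloured by genomic cluster; filled points have a 95% interval from the limma fit, and open points were too dim to be tested. In the miR-92 seed group the interval of miR-25 (0.21 to 0.57) and that of miR-92a (-0.56 to -0.03) lie on opposite sides of 0, and every other interval but that of miR-93 (0.10 to 0.67) crosses 0.

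Averaged over their members, the 2 clusters had changes of opposite sign after quantile normalization, a direction that did not hold for miR-17-92 without normalization. The mean log2 value of miR-106b-25 was 8.77, 9.01 and 8.97 on the TNF-α arrays, against 8.62, 8.60 and 8.64 on the control arrays, a mean change of 0.30. That of miR-17-92 was 6.74, 6.88 and 6.89 with TNF-α, against 6.92, 6.91 and 6.98 in controls, a mean change of -0.10. On this scale neither pair of groups overlapped, and TNF-α replicate 1 was the lowest TNF-α array in both clusters. The difference of the cluster means within an array, whose level depends on the probes and only whose change is read here, was 2.03, 2.13 and 2.08 with TNF-α, against 1.70, 1.69 and 1.66 in controls. It was 0.40 larger with TNF-α, while its SD between arrays was 0.05 with TNF-α and 0.02 in controls. It has no p, since it is a score over members listed with earlier results known. Averaging over only the members clear of background, 4 of 6 in miR-17-92, gave 0.41.

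This difference between the clusters depended on the scaling of the arrays. Without normalization, or with median scaling, it was 0.17, and with cyclic loess it was 0.38. Without normalization the mean change was 0.18 for miR-106b-25 and 0.0076 for miR-17-92, and with median scaling 0.12 and -0.05. The difference on single arrays had values of 1.90, 2.01 and 1.94 with TNF-α, against 1.84, 1.85 and 1.66 in controls when no scaling was applied. In the authors' processed table it was 0.33, with 2.47, 2.65 and 2.54 with TNF-α, against 2.26, 2.24 and 2.16 in controls. In each of these settings the groups still did not overlap in this difference. The means of the single clusters did overlap without normalization. There miR-106b-25 had 8.73, 8.98 and 8.82 with TNF-α, against 8.71, 8.74 and 8.56 in controls. miR-17-92 had 6.83, 6.97 and 6.88 with TNF-α, against 6.87, 6.88 and 6.91 in controls. In the authors' processed table miR-106b-25 overlapped and miR-17-92 did not. The miR-106b-25 reporters were further above background than those of miR-17-92, and the background peak itself was higher on the TNF-α arrays; the part of that background in the difference was not tested.

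The shared seeds allow 5 comparisons of a miR-106b-25 member with a miR-17-92 member of the same family. With 3 arrays against 3, the exact two-sided permutation test cannot give a p below 0.1, so none of the 5 could pass 0.05. miR-25 minus miR-92a was 2.49, 2.43 and 2.46 on TNF-α arrays, against 1.43, 2.07 and 1.83 on control arrays. Every TNF-α value exceeded every control value, the difference in change was 0.68, and the exact permutation p was 0.1, the smallest possible (0.3 adjusted over the 5 pairs). On this scale miR-25 alone was higher and miR-92a alone lower without overlap, so their difference had to separate the groups. The separation and its permutation p therefore restate those values and add no further support. It was 0.50 without control replicate 1, 0.46 without normalization and 0.73 in the authors' processed table. In these settings the values of miR-25 minus miR-92a did not overlap between the groups, from sequences that differ by 3 bases over 21. No other reporter with the miR-92 seed was part of these pairs. miR-92a itself read only 1.19 to 1.26 times the background limit on the TNF-α arrays.

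In the miR-17 family the differences were smaller and the groups overlapped. miR-93 minus miR-17 was 1.44, 1.73 and 1.57 with TNF-α, against 1.53, 0.93 and 1.06 in controls, a difference of 0.41 (exact permutation p = 0.2). miR-93 minus miR-20a was 1.29, 1.62 and 1.72 with TNF-α, against 1.39, 0.97 and 0.95 in controls, a difference of 0.44 (exact permutation p = 0.2). In both, control replicate 1 lay among the TNF-α arrays. miR-106b minus miR-17 differed by 0.14 and miR-106b minus miR-20a by 0.17 (exact permutation p = 0.3 each). All these p-values were 0.3 after adjustment over the 5 pairs.

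**Figure D3:**
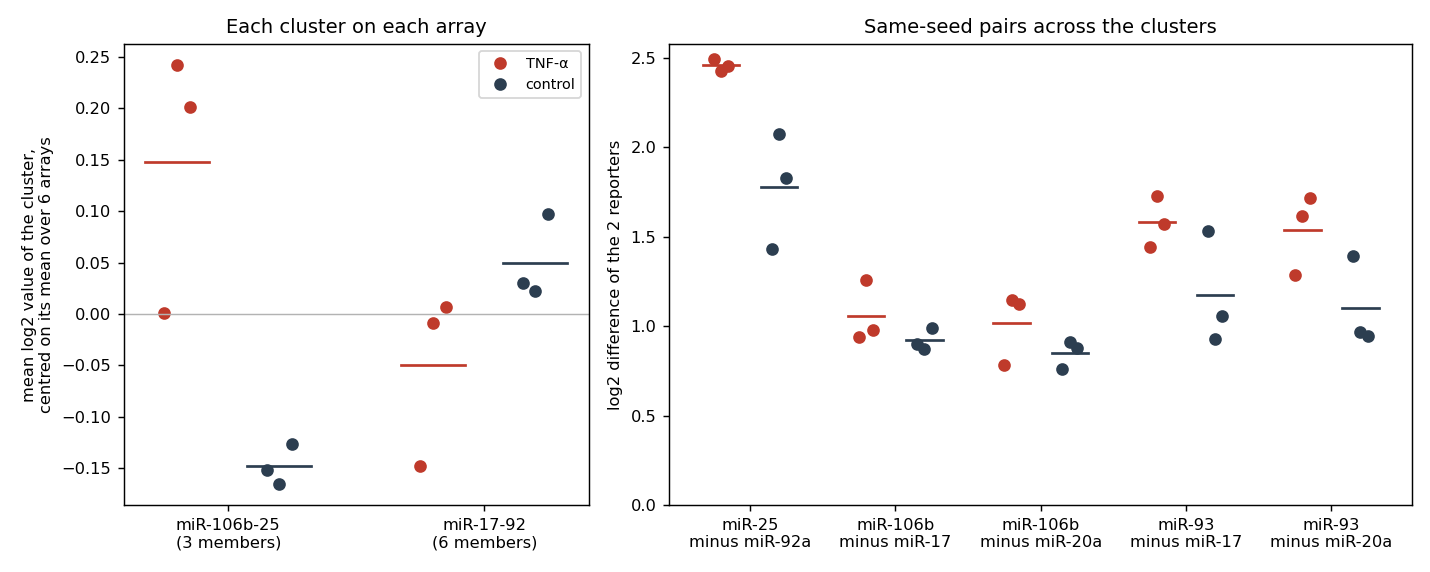
Left, the mean normalized log2 value of each cluster on each array, centred on its mean over the 6 arrays; right, the within-array log2 difference of the 5 same-seed pairs, with TNF-α arrays in red left of control arrays in dark, points for arrays and lines for group means. After quantile normalization TNF-α values of miR-106b-25 lie above those of controls and TNF-α values of miR-17-92 below them, and among the pairs the groups separate for miR-25 minus miR-92a (2.43 to 2.49 against 1.43 to 2.07) and overlap for the other 4.

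The other arm of each hairpin, marked by an asterisk in the older names the array uses, was too dim to follow. All 9 such reporters were below the background limit on every array, with group mean densities of 66.7 to 97.5. Of these, 5 were tested and 0 passed in limma, with 0 at an unadjusted p under 0.05 as well. The shares over all tested reporters were 22.7% and 35.5%. miR-25*, from the same hairpin as the called miR-25, had densities of 103, 104 and 85.4 with TNF-α, against 78.2, 96.9 and 77.6 in controls, with a change of -0.02 ± 0.08 (adjusted p = 0.891 in limma). miR-106b* had 84.8, 99.4 and 87.9 with TNF-α, against 88.0, 88.8 and 88.0 in controls, with a change of -0.19 ± 0.09 (adjusted p = 0.152). miR-93* had a change of -0.04 ± 0.20, and its densities ran from 65.8 to 118 with TNF-α, against 76.8 to 86.7 in controls. These readings lay too close to background to show whether both arms of a hairpin moved together.

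The third paralogous cluster, miR-106a-363, was not clearly detected. Of its 10 reporters 0 were clear of background, 5 were tested and 0 passed in limma, with 0 at an unadjusted p under 0.05 as well. Over all tested reporters these shares were 22.7% passing and 35.5% at an unadjusted p under 0.05. miR-106a, which differs from miR-17 by U10A alone, had densities of 104, 124 and 99.9 with TNF-α, against 87.4, 81.3 and 90.9 in controls, with a change of 0.12 ± 0.11 (adjusted p = 0.447 in limma). miR-20b, which differs from miR-20a by U1C and U10C, had a change of -0.01 ± 0.09. One reporter stood out by a single array: miR-92a-2* read 64.8, 99.3 and 322 with TNF-α, against 90.2, 90.2 and 74.5 in controls. Its change of 0.42 ± 0.55 (adjusted p = 0.642) became -0.36 without TNF-α replicate 3.

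Outside the 3 clusters, the array held 3 more reporters with the miR-92 seed and none with the others. miR-92b, which differs from miR-92a by U10C and G21C over 21 bases, had densities of 105, 144 and 121 with TNF-α, against 137, 124 and 117 in controls. The groups overlapped and the change was -0.15 ± 0.13 (adjusted p = 0.468 in limma). miR-32 and miR-367 lay below the background limit on every array. Over all 16 reporters with a member's seed, 10 were tested, 1 rose and 0 fell in limma (3 at an unadjusted p under 0.05). Of all tested reporters on the array, 12.9% were called higher, 9.81% lower, and 35.5% had an unadjusted p under 0.05. The median change of the tested reporters with a member's seed was -0.01.

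The reporters whose profile over the 6 arrays was most like the mean of the 3 miR-106b-25 members were miR-467c, miR-3095-3p and miR-15b, with Pearson's r of 0.98, 0.97 and 0.96. Their changes were 0.24, 0.25 and 0.41. For the 4 tested members of miR-17-92 they were miR-1247, miR-199a-3p and miR-3090*, with r of 0.97, 0.94 and 0.94 and changes of -0.16, -0.25 and -0.24. Likeness was taken among 624 tested reporters outside the lists above, some of them dim. The mean densities of miR-467c, 94.98 with TNF-α and 68.81 in controls, lay under every background limit of the group. miR-1247 was above the limit on 0 TNF-α arrays and 3 control arrays. For miR-3090* the mean of 108.8 with TNF-α lay under the TNF-α limits, and that of 112.9 in controls above the control limits. Since the arrays form 2 groups, r here mostly follows the difference between the groups and is given as a description.

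**Figure D4:**
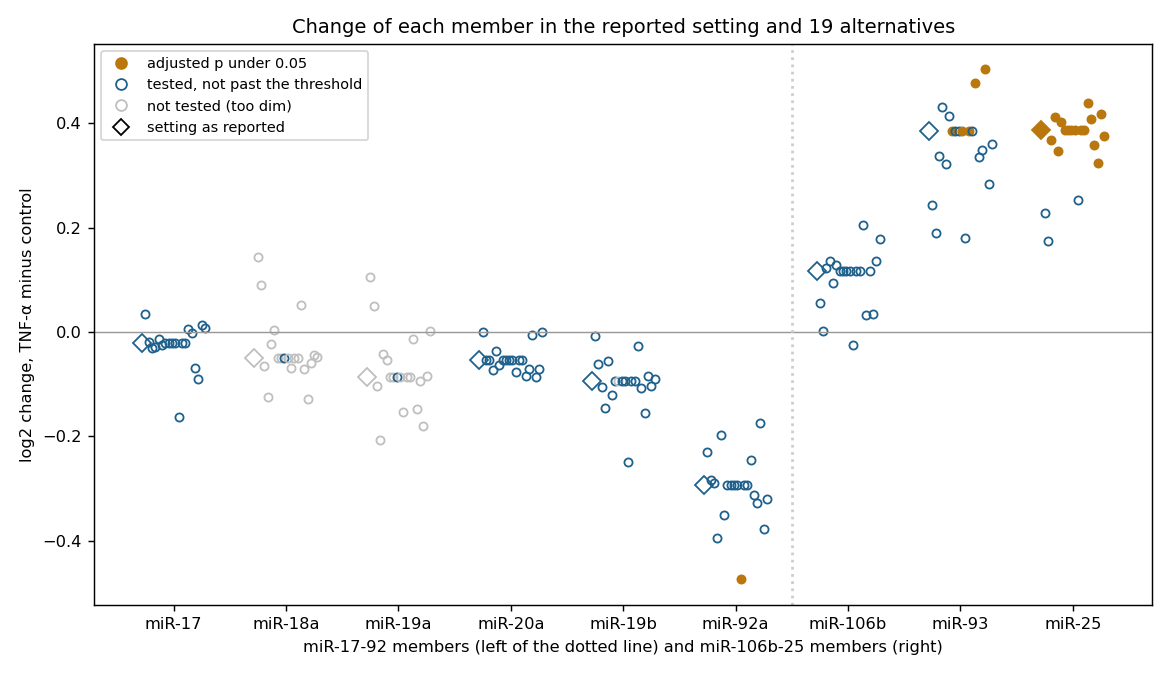
Log2 change, TNF-α minus control, of each member (vertical axis) in the reported setting (diamond) and 19 alternatives of scaling, offset, filter, source table, variance model, replicate block and arrays left out (circles); filled symbols passed an adjusted p of 0.05, blue open ones were tested and did not, and grey ones were too dim to be tested. miR-25 stayed between 0.17 and 0.44 and passed in 16 alternatives, miR-93 stayed above 0 and passed in 5, and miR-92a stayed between -0.47 and -0.17 and passed in 1.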

How the data were processed

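Per the labels' protocols, total RNA was poly(A) tailed, joined to a tag and stained with Cy5 for 1-colour arrays. Per the file headers, the authors deposited a median density and its standard deviation per reporter, intensities without background subtraction. A deposited table of processed intensities, floored near 0, has background and scaling steps that the sources used here do not state; it served as an alternative, as log2 of the value plus 32. Densities were corrected with normexp, raised by 50, put on the log2 scale and quantile normalized (alternatives were none, median scaling and cyclic loess) in limma 3.58.1 (R 4.3.3). The model held the group alone, and p-values were adjusted by the Benjamini-Hochberg method over 642 tested reporters. The labels call the cultures biological replicates grown independently; the descriptions number 2 TNF-α samples alike, so replicates were numbered in accession order. The members, lists and tests were chosen with earlier results of these data known. All members, the other arms of their hairpins, the miR-106a-363 reporters, reporters with a member's seed and the 3 most alike reporters per cluster were named by rule. Mature sequences were found for 29 of 31 named reporters, all 9 members included. On 20 simulated sets of 1078 reporters (TNF-α against control, 100 changed), 93.9% of log2 changes of 1 and 58.7% of log2 changes of 0.5 were recovered. Their median estimates were 0.77 and 0.36, and 9.86% of calls were false. Changes were placed only in reporters with a mean density more than 50 above the background peak, and the noise between arrays was a chosen value. The recovered shares therefore do not cover dimmer tested reporters. Deviations of same-numbered arrays correlated at 0.04, 0.02 and 0.15, so the numbers were not treated as pairs. The number of arrays limits the precision.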

Additional observations from a re-analysis of the deposited data

How the results depend on the processing

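Every setting keeps 3 arrays a group or fewer, and readings below the background limit give no level. The number of members called was 0 without normalization, where 204 of 642 tested reporters were called, and with median scaling, where 186 were. It was 2 of 7 tested (miR-25 and miR-93) with a filter on all 6 arrays, beside 108 of 339 tested reporters. The same 2 were called with a filter at the background limit, beside 110 of 293, and with a trended robust variance, beside 167 of 642. Leaving out single arrays gave 1 to 2, beside 70 to 91 of the 500 to 626 tested reporters. The number of reporters called was 77 with a filter at 100, where fewer were tested, and 70 to 91 with single arrays left out. The difference between the clusters was 0.17 without normalization and with median scaling, 0.49 with the smaller offset of 8, 0.32 with the larger offset, 0.33 in the authors' processed table and 0.38 to 0.43 with single arrays left out; the cause was not tested. The 5 pair differences stayed positive in all 19 alternatives, but not all of these could change them. The filter, variance and block settings leave the differences as reported, and median scaling gives the same differences as no normalization. With the replicate number as a block, 103 reporters and 1 member were called, miR-25 had an adjusted p of 0.0302 in limma, and no member's call changed; the numbers give no design reason to pair the arrays.

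The filter, variance and block settings cannot change a sign. Of 281 tested values of named reporters under alternatives, those settings included, 26 changed sign, none of them called in either setting. Without normalization these were miR-17 (0.035), miR-19b-1* (0.16), miR-93* (0.13), miR-25* (0.18), miR-18b* (0.039) and miR-20b (0.19). With median scaling they were miR-19b-1* (0.11), miR-93* (0.076), miR-25* (0.12) and miR-20b (0.13). With cyclic loess it was miR-20b* (-0.00081), and in the processed table miR-106b (-0.026). With single arrays left out, the values ran from -0.090 to 0.014 for miR-17, -0.078 to 0.012 for miR-19b-1*, -0.081 to 0.23 for miR-93* where it was tested (-0.18 to 0.23 over all 6), -0.071 to 0.052 for miR-25*, -0.097 to 0.056 for miR-20b, -0.36 to 0.97 for miR-92a-2*, -0.25 to 0.013 for miR-92b, -0.0043 to 0.056 for miR-17* and -0.030 to 0.032 for miR-20b* where it was tested (-0.032 to 0.036 over all 6).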
